A study of Mus musculus with 18 samples.

Results

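The 40 interferon response genes described here were chosen by symbol and are 40 of the 29307 genes in the deposited table. They comprised 4 sensors of nucleic acid, 5 signalling genes, 14 antiviral effectors, 5 genes of the OAS family, 8 interferon-induced GTPases and 4 genes that supply peptides to MHC class I. A level is the number of reads of a gene relative to the 90th percentile of reads per gene in the same library. All 40 genes reached the minimum level of 0.005 in at least 3 libraries and were among the 16342 genes tested.

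Interferons are cytokines that cells release when they sense foreign or misplaced nucleic acid, and lymphocytes release the type II form, interferon gamma, when activated. Type I and III interferons signal through the kinases JAK1 and TYK2 to a complex with STAT2 and IRF9 that binds the interferon-stimulated response element (ISRE), whereas interferon gamma signals through JAK1 and JAK2 and acts on the gamma-activated site (GAS). The genes they switch on sense and degrade viral RNA, block replication, dismantle the vacuoles of intracellular pathogens and supply peptides to MHC class I molecules. In the kidney such genes are known to be induced after ischemia, in tubular cells as well as in leukocytes. IKKβ, the kinase deleted in this study, activates NF-κB, which also binds the promoters of several of these genes.

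Kidney mRNA was sequenced from control mice (IKKβfl/fl, given as WT in the sample labels) and from IKKβ∆Tub mice (Pax8-rt-TA-LC1Cre/IKKβfl/fl), in which doxycycline induces Cre in the tubular epithelium. Both strains drank doxycycline from 6 weeks of age for 2 weeks, followed by 1 week without it, so the controls carried the floxed alleles and had received the drug, but had no Cre. Kidneys were taken at baseline, without injury, and 2 and 14 days after the left renal pedicle had been clamped and released (I/R injury). Each of the 6 groups had 3 libraries. By the sample titles every library was made from 2 pooled mice, but the key deposited with the table lists some as single mice.

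The baseline libraries held 26285452 to 66317182 reads and the injured ones 12306138 to 25933188. The deposited key lists the baseline libraries as a newer set of samples, so injury cannot be told apart from sample set and depth in any comparison with baseline. The 2-day and 14-day libraries belong to one older set, but the mouse numbers in the key come from different series at each of the 3 times, so time and animal series cannot be told apart. Y-linked expression was present in 0, 1 and 2 of 3 control libraries at baseline, 2 and 14 days. It was present in 2, 3 and 0 of 3 IKKβ∆Tub libraries, so sex was spread unevenly over strains and times. Ikbkb, the deleted gene, had levels of 0.765, 0.736 and 0.861 in control against 0.551, 0.426 and 0.376 in IKKβ∆Tub at baseline, and of 1.21, 1.11 and 1.13 against 0.843, 0.669 and 0.844 at 14 days. At 2 days Ikbkb was at 0.829, 0.855 and 1.29 where the label was control and at 0.856, 0.846 and 0.986 where it was IKKβ∆Tub. Vmn1r32, a vomeronasal receptor gene named after its values were seen, gave 0 reads in the 6 control libraries of baseline and 14 days and 57 to 356 in each IKKβ∆Tub library of those times. At 2 days it had 21, 31 and 3 reads in the libraries labelled control and 17, 32 and 18 in those labelled IKKβ∆Tub, so replicates 1 and 2 labelled control went against their label. One library at 14 days, IKKβ∆Tub replicate 2, stood apart: its Ptprc level, a marker of all leukocytes, was 0.124 against 0.451 and 0.357 in the other IKKβ∆Tub libraries, and its Lrp2 level, a proximal tubule marker, was 19 against 6.62 and 5.27.

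Promoter sequences are shown because the elements that interferon-activated factors read lie close to the start of these genes. RefSeq windows of GRCm38.p6 from 250 bases before to 50 bases after the transcript start were found for 32 of the 40 genes, the others being Oas2, Mx1, Mx2, Dhx58, Usp18, Iigp1, Zbp1 and Parp14, and both strands were searched. The ISRE core GAAANNGAAA was present in 18 of the 32 (56.2%) and in 3.99% of the 27025 genes with a window. The GAS core TTCNNNGAA was present in 10 (31.2%, against 9.55% of all genes) and the NF-κB consensus in 7 (21.9%, against 9.55%). The ISRE core was in the windows of 7 of 7 GTPases, 6 of 11 effectors, 2 of 2 sensors, 2 of 4 OAS family genes, 1 of 4 signalling genes and 0 of 4 class I peptide supply genes. A match is a stretch of letters, not a binding site, and occupancy was not measured.

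The 150 bases before the start are given below on the strand of the gene, with the letters of a match in capitals. Isg15 (chr4:156200819-156200968, minus strand), which encodes a ubiquitin-like protein, has overlapping ISRE cores. In Oas1a (chr5:120907526-120907675, minus strand), which makes the 2′-5′ oligoadenylates that activate RNase L, a GAS core lies before overlapping ISRE cores. In Bst2 (chr8:71537473-71537622, minus strand), which encodes tetherin, an NF-κB match overlaps a GAS core that overlaps an ISRE core. Gbp7 (chr3:142530186-142530335, plus strand) has a pair of GAS cores and an ISRE core on the other strand.
Isg15: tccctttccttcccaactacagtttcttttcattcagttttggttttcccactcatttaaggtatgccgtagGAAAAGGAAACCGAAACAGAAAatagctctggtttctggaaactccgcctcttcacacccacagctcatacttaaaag
Oas1a: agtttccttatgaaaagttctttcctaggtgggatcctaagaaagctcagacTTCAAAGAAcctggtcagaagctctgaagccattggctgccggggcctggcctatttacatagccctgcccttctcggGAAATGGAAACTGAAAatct
Bst2: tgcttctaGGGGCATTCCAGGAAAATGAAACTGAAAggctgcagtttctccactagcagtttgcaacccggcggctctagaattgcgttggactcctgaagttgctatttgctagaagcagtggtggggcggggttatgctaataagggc
Gbp7: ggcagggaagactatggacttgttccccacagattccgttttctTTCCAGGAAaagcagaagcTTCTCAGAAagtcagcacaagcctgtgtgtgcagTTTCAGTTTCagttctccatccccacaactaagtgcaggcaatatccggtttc

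Igtp (chr11:58199406-58199555, plus strand) and Irgm2 (chr11:58214827-58214976, plus strand) are neighbouring GTPase genes, and in both a GAS core is followed closely by an ISRE core. Their annotated transcripts overlap on the same strand, so reads may have been divided between them and their levels are uncertain. Psmb8 (chr17:34198045-34198194, plus strand), a subunit of the immunoproteasome, has a GAS core and no ISRE core. Tap1 (chr17:34187406-34187555, plus strand), a subunit of the peptide transporter, starts 226 bases from Psmb9 on the opposite strand, and no match was found in the window of either.
Igtp: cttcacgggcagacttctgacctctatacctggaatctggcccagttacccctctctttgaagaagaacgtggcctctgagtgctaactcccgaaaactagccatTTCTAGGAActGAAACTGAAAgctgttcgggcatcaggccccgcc
Irgm2: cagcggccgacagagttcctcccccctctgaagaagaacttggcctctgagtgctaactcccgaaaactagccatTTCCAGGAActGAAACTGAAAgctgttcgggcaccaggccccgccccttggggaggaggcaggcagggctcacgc
Psmb8: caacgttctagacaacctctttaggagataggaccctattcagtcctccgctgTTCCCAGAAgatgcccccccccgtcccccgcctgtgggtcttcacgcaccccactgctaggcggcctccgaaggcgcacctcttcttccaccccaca
Tap1: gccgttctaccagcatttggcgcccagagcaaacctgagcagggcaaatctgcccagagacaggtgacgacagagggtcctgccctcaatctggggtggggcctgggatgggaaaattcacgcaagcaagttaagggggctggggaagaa

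Most of the genes were higher after injury than at baseline in both strains. In control kidneys 28 of the 40 had risen and 0 had fallen at 2 days, where 25.3% of all genes tested had risen (limma, adjusted p below 0.05). At 14 days 36 had risen and 0 had fallen, where 32.5% of all genes had risen. Fold changes here and below are differences in log2(level + 0.005), which understates the change of low genes. The median log2 fold change of the 40 genes was 1.13 at 2 days and 1.42 at 14 days, beside medians of 0.16 and 0.23 over all genes. In IKKβ∆Tub kidneys 31 had risen and 1, Gbp7, had fallen at 2 days (35.2% of all genes had risen and 14.5% had fallen), and 31 had risen and 0 had fallen at 14 days (28.6% of all genes had risen). Their medians there were 1.33 and 1.32, beside 0.25 over all genes at either time.

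Rescaling the libraries by median ratios brought the median of all genes to between -0.03 and 0.04 in these comparisons and the share of all calls that were higher from between 65.8% and 72.4% to between 49.5% and 54.1%. Under it the counts of genes that rose were 26 and 33 in control against 26 and 29 in IKKβ∆Tub at 2 and 14 days. Of all genes 19.1% and 24.6% then rose in control and 24.2% and 19% in IKKβ∆Tub. Rsad2 then also fell in control at 2 days, as it did with edgeR and DESeq2. Without replicates 1 and 2 labelled control at 2 days, 20 genes had risen in control at 2 days (median 1.38), but this leaves 1 control library at that time, whose spread is taken from the other groups. In these bulk kidney samples a change in the number of cells of a type and a change in the RNA of each cell cannot be told apart. Macrophage markers moved with the same comparisons. Summed over 6 of them, the level was 1.01 to 1.57 at baseline. It was 3.73 to 5.19 in control and 6.49 to 6.79 in IKKβ∆Tub at 2 days, and 9.25 to 12.2 and 1.67 to 6.71 at 14 days. Other leukocyte lists differed by strain and time. In control at 2 days 4 of 4 neutrophil markers rose, but 0 of 7 T and NK cell, 0 of 3 B cell and 0 of 4 plasmacytoid dendritic cell markers. In control at 14 days 3 of 4 neutrophil, 6 of 7 T and NK cell, 2 of 3 B cell and 1 of 4 plasmacytoid dendritic cell markers rose. In IKKβ∆Tub at 2 days these counts were 3, 3, 1 and 1. In IKKβ∆Tub at 14 days against baseline 1 of 4 neutrophil markers rose and 1 fell (median -1.03), while 3, 1 and 0 rose in the other lists. Fibroblast markers rose in 2 of 4 in control and 3 of 4 in IKKβ∆Tub at 2 days, and in 4 of 4 at 14 days in both. The sum over 5 proximal tubule markers was 79.9 to 143 at baseline and 12.3 to 47 at 14 days. The part of these changes in the interferon response genes was not tested.

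**Figure D1:**
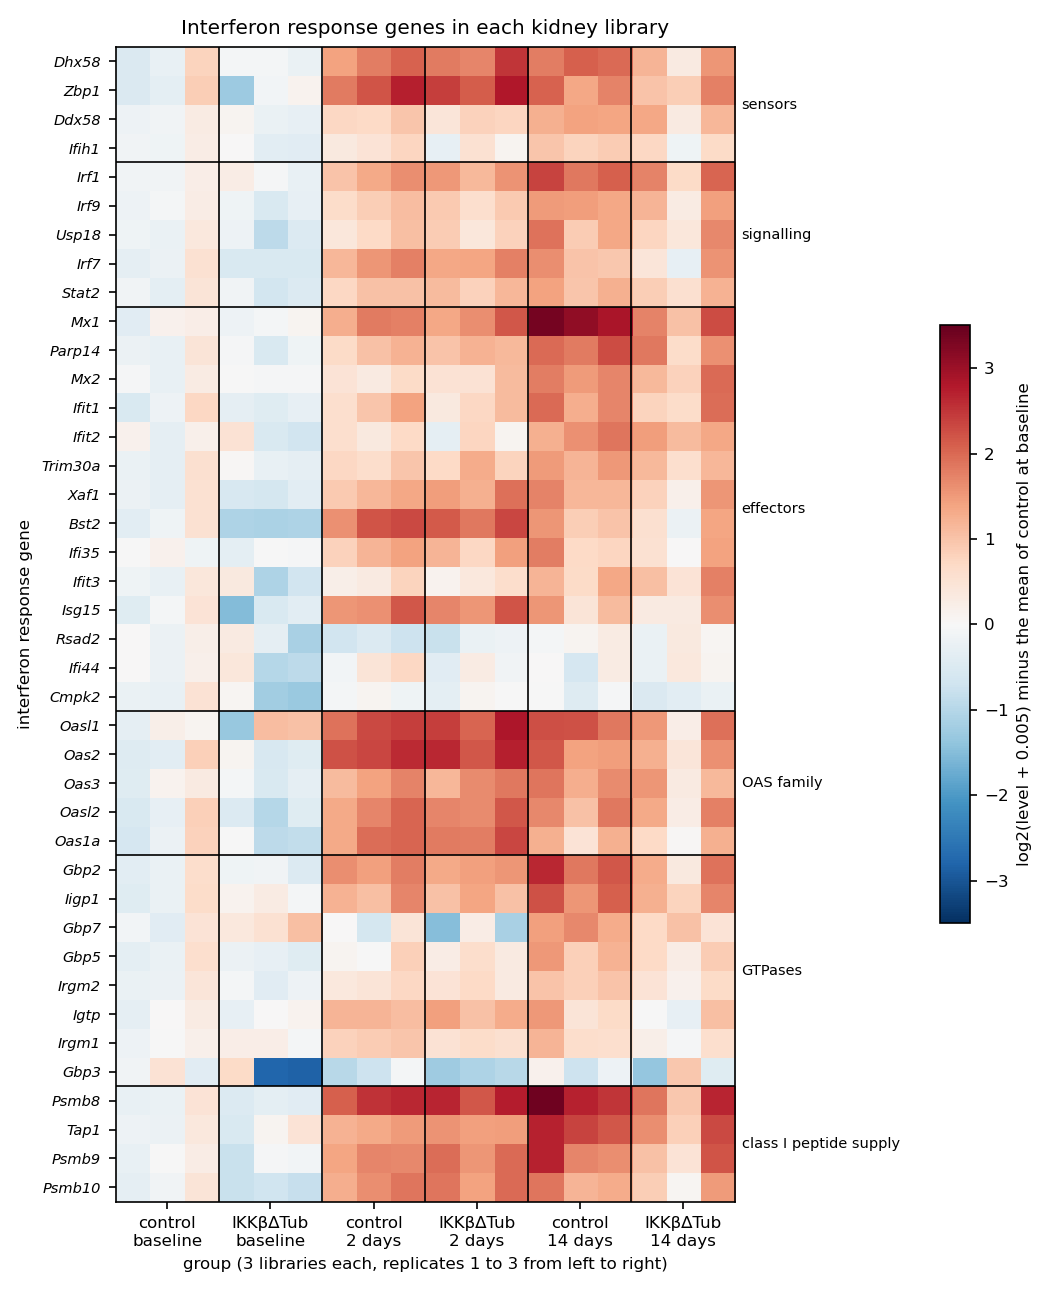
Heat map of the 40 genes (rows, in 6 role groups) in the 18 libraries (columns, in 6 groups of 3), coloured by log2(level + 0.005) minus the mean of the control libraries at baseline. Red covers nearly all genes after injury in both strains, while the middle column of the IKKβ∆Tub group at 14 days is paler, being the lowest of its 3 libraries in 34 of 40 genes.

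The sensors of nucleic acid rose at 2 days in 3 of 4 and at 14 days in 4 of 4 genes in each strain. Dhx58 encodes LGP2, which modulates the RNA sensors RIG-I and MDA5. Its level was 0.0122, 0.0155 and 0.0374 in control at baseline, 0.0603, 0.0809 and 0.0978 at 2 days and 0.0798, 0.1 and 0.0918 at 14 days. In IKKβ∆Tub it was 0.0186, 0.0183 and 0.0159, then 0.0823, 0.0758 and 0.134, then 0.051, 0.0256 and 0.0672. It had therefore risen in both strains without overlap with baseline at 2 days, and at 14 days the IKKβ∆Tub libraries all lay below the control ones. Its log2 fold change at 14 days against baseline was 1.95 in control and 1.14 in IKKβ∆Tub (SE 0.34 in each, adjusted p = 0.00028 and 0.0152 from limma). Zbp1, a sensor of left-handed nucleic acid that can start necroptosis, rose most among the sensors at 2 days, with log2 fold changes of 2.26 in control and 2.86 in IKKβ∆Tub. Ddx58, which encodes RIG-I, rose by 0.80 in both strains at 2 days and by 1.34 and 1.08 at 14 days on the log2 scale.

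Ifih1 encodes MDA5, the sensor of long double-stranded RNA, and changed least among the sensors. Its level in control was 0.218, 0.214 and 0.282 at baseline, 0.303, 0.333 and 0.402 at 2 days and 0.468, 0.409 and 0.438 at 14 days. In IKKβ∆Tub it was 0.238, 0.181 and 0.178 at baseline, 0.194, 0.347 and 0.255 at 2 days and 0.394, 0.214 and 0.379 at 14 days. It passed the test at 14 days in both strains, with log2 fold changes of 0.88 and 0.67, and at 2 days in neither.

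The signalling genes rose at 14 days in 5 of 5 genes in each strain. Irf1, an interferon gamma target and itself a transcription factor, increased most in control. Its level was 0.203, 0.205 and 0.263 at baseline, 0.448, 0.564 and 0.702 at 2 days and 1.16, 0.807 and 0.962 at 14 days in control. In IKKβ∆Tub it was 0.265, 0.215 and 0.184, then 0.639, 0.496 and 0.67, then 0.747, 0.356 and 0.925. The control libraries thus lay higher at each later time without overlap, and the IKKβ∆Tub libraries at 14 days spanned their own levels at 2 days. Irf7, the factor that amplifies type I interferon production, had levels of 0.145, 0.155 and 0.261 in control at baseline, 0.412, 0.539 and 0.628 at 2 days and 0.572, 0.367 and 0.354 at 14 days. In IKKβ∆Tub its level was 0.124, 0.123 and 0.122 at baseline, 0.471, 0.478 and 0.619 at 2 days and 0.245, 0.148 and 0.543 at 14 days. The means of Irf7 were higher at 2 than at 14 days, but the libraries overlapped, and the log2 fold change from 2 to 14 days was -0.30 in control and -0.92 in IKKβ∆Tub, neither past the test (SE 0.36, adjusted p = 0.548 and 0.0575 from limma). Irf9 and Stat2, which encode subunits of the type I complex, rose by 1.44 and 1.20 on the log2 scale at 14 days in control. Usp18, which removes ISG15 and dampens the receptor, rose by 1.39 in control and by 1.47 in IKKβ∆Tub at that time.

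The OAS family, whose products make or bind 2′-5′ oligoadenylates or inhibit viruses in related ways, rose in 5 of 5 genes at 2 days in both strains. The median log2 fold change was 1.77 in control and 2.49 in IKKβ∆Tub. Oasl1, a family member that represses translation of Irf7 in mice, had levels of 0.0232, 0.0355 and 0.0328 in control at baseline, 0.126, 0.168 and 0.182 at 2 days and 0.164, 0.16 and 0.122 at 14 days. In IKKβ∆Tub its level was 0.00907, 0.0696 and 0.0658 at baseline, 0.182, 0.139 and 0.245 at 2 days and 0.0957, 0.0366 and 0.129 at 14 days. In control it was high at both times after injury, while in IKKβ∆Tub the 14-day libraries overlapped the spread at baseline. Oas1a had levels of 0.0159, 0.0221 and 0.0493 in control at baseline, 0.0737, 0.116 and 0.123 at 2 days and 0.0696, 0.039 and 0.0693 at 14 days. In IKKβ∆Tub they were 0.0262, 0.0116 and 0.0121, then 0.106, 0.104 and 0.154, then 0.0459, 0.0271 and 0.0686. Oas1a had its highest levels at 2 days in both strains, and its highest control library at baseline lay above its lowest control library at 14 days. Oas2 rose most in the family at 2 days, by 2.39 on the log2 scale in control and by 2.80 in IKKβ∆Tub.

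Among the effectors 8 of 14 rose at 2 days and 11 of 14 at 14 days in control, and 9 and 10 in IKKβ∆Tub. The highest fold change of all 40 genes at 14 days in control was that of Mx1 (chr16:97447035-97462907 in GENCODE M21, minus strand), which encodes a GTPase that traps viral ribonucleoproteins. Its level in control was 0.00147, 0.00448 and 0.00493 at baseline, 0.0156, 0.025 and 0.0236 at 2 days and 0.0816, 0.0683 and 0.0559 at 14 days. In IKKβ∆Tub it was 0.00252, 0.00306 and 0.00404 at baseline, 0.0167, 0.021 and 0.0329 at 2 days and 0.0232, 0.0124 and 0.0366 at 14 days. Mx1 rose at each step in control, and in IKKβ∆Tub it stayed at 14 days within reach of its levels at 2 days. The log2 fold change at 14 days against baseline was 3.10 in control and 1.74 in IKKβ∆Tub (SE 0.29 in each, adjusted p = 3.6e-06 and 0.000548 from limma). Bst2 rose most in IKKβ∆Tub at 2 days, from 0.0762 ± 0.0012 to 0.744 ± 0.126 (SD, n = 3), and from 0.174 ± 0.0624 to 0.717 ± 0.172 in control. Isg15 rose from 0.0383 ± 0.0139 to 0.141 ± 0.037 in control and from 0.0204 ± 0.00953 to 0.145 ± 0.0374 in IKKβ∆Tub at 2 days (SD, n = 3). Parp14, an ADP-ribosyltransferase, rose later, from 0.229 ± 0.0691 at baseline to 0.446 ± 0.0848 at 2 days and 0.931 ± 0.161 at 14 days in control (SD, n = 3).

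Ifi44, Rsad2, Gbp3 and Cmpk2 passed the test in limma in none of the 4 comparisons with baseline. Rsad2 fell in control at 2 days with edgeR and DESeq2 (-0.85 and -0.82 on the log2 scale, adjusted p = 0.0203 and 0.0119, against -0.62 and 0.0992 in limma). With only the libraries compared it also passed as lower in limma (adjusted p = 0.0157). The same held without IKKβ∆Tub baseline replicate 1 or 3 (adjusted p = 0.042 and 0.0379 from limma). Without IKKβ∆Tub baseline replicate 1, all 4 passed as higher in IKKβ∆Tub at 14 days (limma). Their log2 fold changes were 1.04 for Ifi44, 0.79 for Rsad2, 2.52 for Gbp3 and 0.89 for Cmpk2. The 2 baseline libraries then left had Y-linked expression and the 14-day ones had none. Time and sex therefore cannot be told apart in that fit. Cmpk2, a mitochondrial nucleotide kinase that lies next to Rsad2 on chromosome 12, had levels of 0.176, 0.172 and 0.297 in control at baseline, 0.198, 0.223 and 0.186 at 2 days and 0.207, 0.15 and 0.201 at 14 days. In IKKβ∆Tub they were 0.218, 0.086 and 0.0822, then 0.162, 0.221 and 0.208, then 0.146, 0.159 and 0.178. The groups of Cmpk2 overlapped throughout. Rsad2, which encodes the antiviral enzyme viperin, had levels of 0.422 ± 0.06, 0.272 ± 0.0254 and 0.456 ± 0.0586 in control against 0.348 ± 0.166, 0.322 ± 0.0706 and 0.444 ± 0.0857 in IKKβ∆Tub at baseline, 2 and 14 days (SD, n = 3). In control at baseline the level per kb of exon was 0.0974 for Rsad2, 0.132 for Gbp3, 0.0517 for Cmpk2 and 0.0285 for Ifi44. Among members that rose it was 0.193 for Bst2, 0.18 for Ifit3 and 0.000958 for Mx1. In IKKβ∆Tub replicate 2 at 14 days, where 34 of the 40 genes were at their lowest of the 6 libraries, Ifi44, Rsad2 and Gbp3 were at their highest.

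The GTPases rose in 4 of 8 genes at 2 days and 7 of 8 at 14 days in control, and in 5 and 4 in IKKβ∆Tub. Gbp2, a guanylate-binding protein that attacks pathogen vacuoles, had levels of 0.0833, 0.0914 and 0.17 in control at baseline, 0.351, 0.306 and 0.388 at 2 days and 0.708, 0.405 and 0.513 at 14 days. In IKKβ∆Tub its level was 0.0972, 0.1 and 0.0763 at baseline, 0.281, 0.306 and 0.326 at 2 days and 0.276, 0.141 and 0.42 at 14 days. Its levels in control at 14 days all exceeded those at 2 days, whereas those in IKKβ∆Tub lay on both sides. Gbp3 behaved differently, with levels of 0.384, 0.595 and 0.312 in control at baseline, 0.211, 0.247 and 0.393 at 2 days and 0.463, 0.25 and 0.367 at 14 days. In IKKβ∆Tub they were 0.663, 0.0565 and 0.0542 at baseline, 0.172, 0.192 and 0.211 at 2 days and 0.158, 0.801 and 0.31 at 14 days. The 2 IKKβ∆Tub baseline libraries with Y-linked expression, replicates 2 and 3, had the lowest Gbp3 levels of all 18 libraries. Gbp7 was the one member that fell against baseline in limma over all 18 libraries with the deposited scaling. In IKKβ∆Tub it went from 0.325 ± 0.0864 at baseline to 0.132 ± 0.094 at 2 days and returned to 0.339 ± 0.0667 at 14 days (SD, n = 3). In control Gbp7 went from 0.207 ± 0.0682 to 0.202 ± 0.0735 and 0.568 ± 0.0818 (SD, n = 3). Among the immunity-related GTPases, Iigp1 rose at 14 days by 1.95 on the log2 scale in control and by 1.14 in IKKβ∆Tub, and Irgm1, which keeps the others off self membranes, rose by 0.79 in control. Members of the Gbp, Oas and Ifit families have similar sequences and may share reads, so the split of reads within each family is uncertain.

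The 4 genes of class I peptide supply rose in every comparison with baseline, and their median at 14 days in control, 2.21, was the highest of the role groups. Psmb8, which encodes the immunoproteasome subunit β5i, had levels of 0.0554, 0.0566 and 0.0965 in control at baseline, 0.305, 0.416 and 0.444 at 2 days and 0.757, 0.461 and 0.403 at 14 days. In IKKβ∆Tub they were 0.0468, 0.0519 and 0.0497 at baseline, 0.45, 0.323 and 0.483 at 2 days and 0.262, 0.134 and 0.453 at 14 days. Every library after injury was above every library at baseline for Psmb8. Psmb10, the subunit β2i, had levels of 0.117, 0.136 and 0.202 in control at baseline, 0.363, 0.466 and 0.553 at 2 days and 0.551, 0.343 and 0.372 at 14 days. In IKKβ∆Tub they were 0.0846, 0.0895 and 0.0818, then 0.551, 0.397 and 0.603, then 0.274, 0.154 and 0.424. Tap1 rose from 0.118 ± 0.0287 to 0.303 ± 0.0271 and 0.641 ± 0.117 in control, and from 0.121 ± 0.0424 to 0.334 ± 0.0175 and 0.392 ± 0.195 in IKKβ∆Tub (SD, n = 3). Psmb9, the subunit β1i across the shared promoter from Tap1, rose by 2.01 and 1.55 on the log2 scale at 14 days in control and IKKβ∆Tub.

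**Figure D2:**
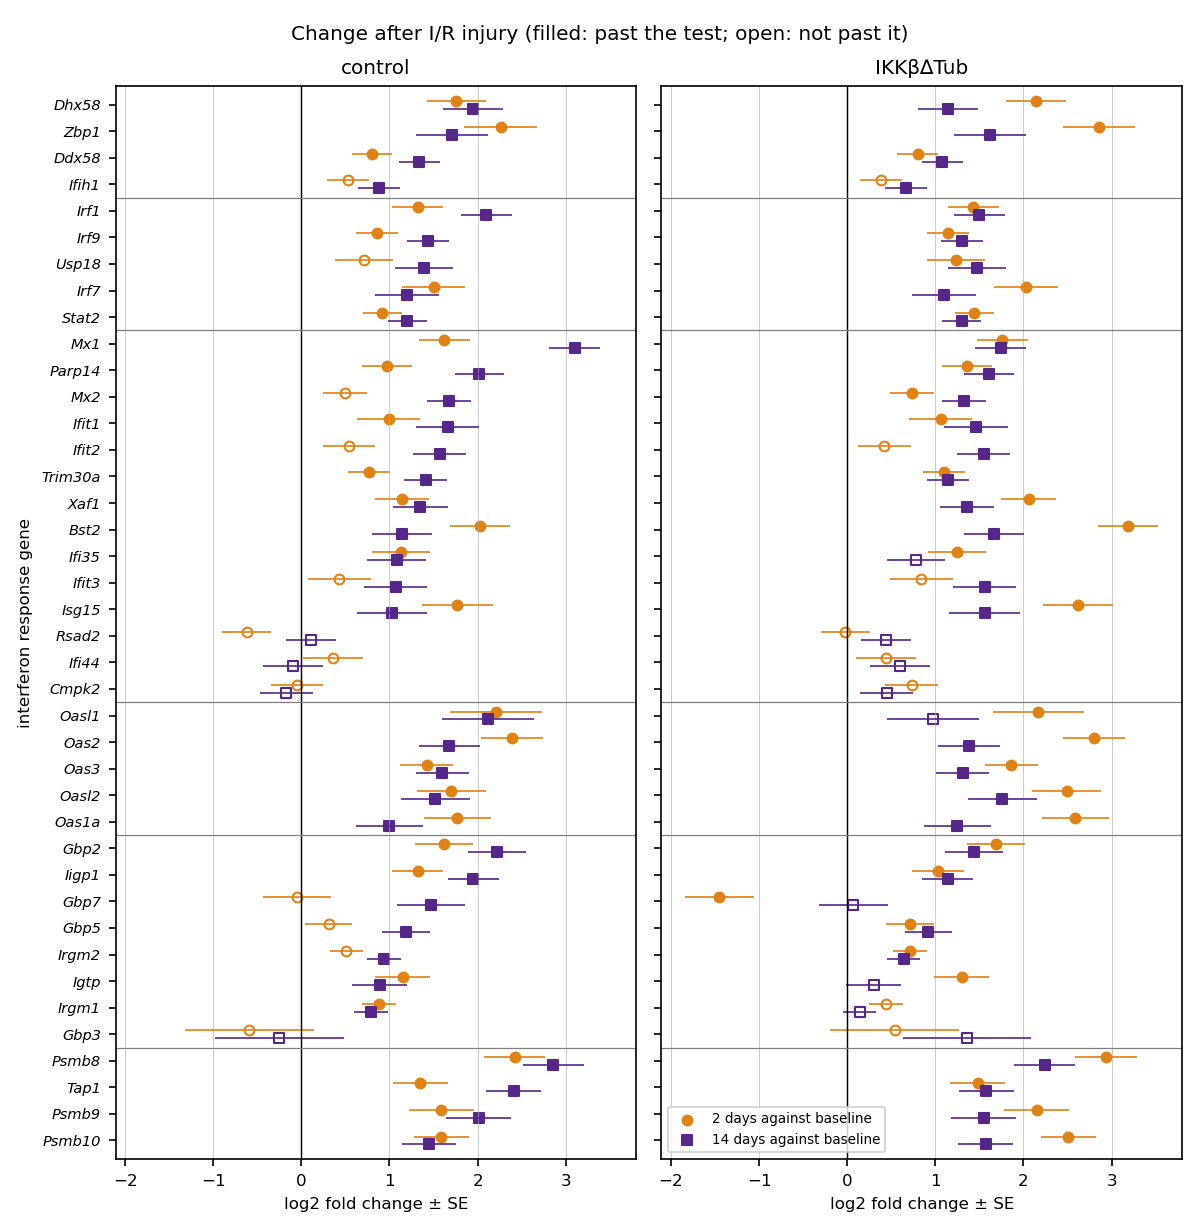
Log2 fold changes (x axis, ± SE) of the 40 genes (y axis, by role group) at 2 days (orange circles) and 14 days (purple squares) against baseline, in control (left) and IKKβ∆Tub (right), filled where past the test. In control 36 squares are filled and to the right of 0, and in IKKβ∆Tub the circle of Gbp7 at -1.45 is the one filled point to the left of 0.

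Between 2 and 14 days, within the older sample set, some genes rose further and others fell. Y-linked expression was present in 3 of 3 IKKβ∆Tub libraries at 2 days and in 0 of 3 at 14 days. In IKKβ∆Tub, time and sex therefore cannot be told apart over this interval. In control it was present in 1 of 3 and 2 of 3. In control 8 rose, namely Irf1, Ifit2, Mx1, Mx2, Parp14, Gbp5, Gbp7 and Tap1, and 0 fell, beside 16.6% of all genes that rose and 17.7% that fell (limma). In IKKβ∆Tub 2 rose, Ifit2 and Gbp7, and 7 fell, namely Dhx58, Zbp1, Bst2, Oas1a, Oas2, Igtp and Psmb10, beside 13.8% and 19.2% of all genes. The shares of the 40 genes that rose in control and that fell in IKKβ∆Tub were thus close to those of all genes. The median of the 40 genes was 0.38 in control and -0.10 in IKKβ∆Tub, beside 0.02 and -0.04 over all genes. Gbp7 rose by 1.52 on the log2 scale in both strains (SE 0.39, adjusted p = 0.00671 and 0.00765 from limma). Ifit2, which binds viral RNA, rose from 0.297 ± 0.0373 to 0.616 ± 0.129 in control and from 0.24 ± 0.0928 to 0.51 ± 0.0659 in IKKβ∆Tub (SD, n = 3). Bst2 had the lowest fold change, falling from 0.744 ± 0.126 to 0.281 ± 0.154 in IKKβ∆Tub, with 0.717 ± 0.172 and 0.383 ± 0.0997 in control (SD, n = 3, adjusted p = 0.0034 and 0.0505 from limma).

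The fitted change from 2 to 14 days was above 0 in both strains for 17 genes and below 0 in both for 13. The OAS family had a median of -0.18 in control and -1.20 in IKKβ∆Tub, and class I peptide supply 0.43 and -0.65. The number of genes that rose in control depended on the 2-day libraries: without the replicates 1 and 2 that went against their label, the median was 0.19, 22 genes were above 0, 0 passed the test in limma and 3 had an unadjusted p below 0.05. Only 1 control library is then left at 2 days and is assumed to vary like the other groups. The smaller arm and the removal of these libraries cannot be told apart as sources of the loss of calls. The share of all genes that passed in that fit is not given. In IKKβ∆Tub 4 genes passed without 2-day replicate 1 and 16 without 14-day replicate 3, where the share of all genes that passed is not given. The macrophage marker sum went from 3.73 to 5.19 at 2 days to 9.25 to 12.2 at 14 days in control, and from 6.49 to 6.79 to 1.67 to 6.71 in IKKβ∆Tub. All 4 neutrophil markers tested fell in IKKβ∆Tub over this interval (median -3.60, with sums of 1.45 to 2.04 at 2 days and 0.0527 to 0.236 at 14 days), and 0 of 4 passed in control (median -0.50). The part of either cell type was not tested. Of the 8 genes that rose in control, 5 had a promoter window, and 4 of these held a GAS core, 2 an ISRE core and 3 the NF-κB consensus, beside 10, 18 and 7 of the 32 members with a window. Of the 7 that fell in IKKβ∆Tub, 4 had a window, 3 with a GAS core, 3 with an ISRE core and 1 with the NF-κB consensus. Both sets are small and near the share called among all genes, and a link between motif and change was not tested.

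**Figure D3:**
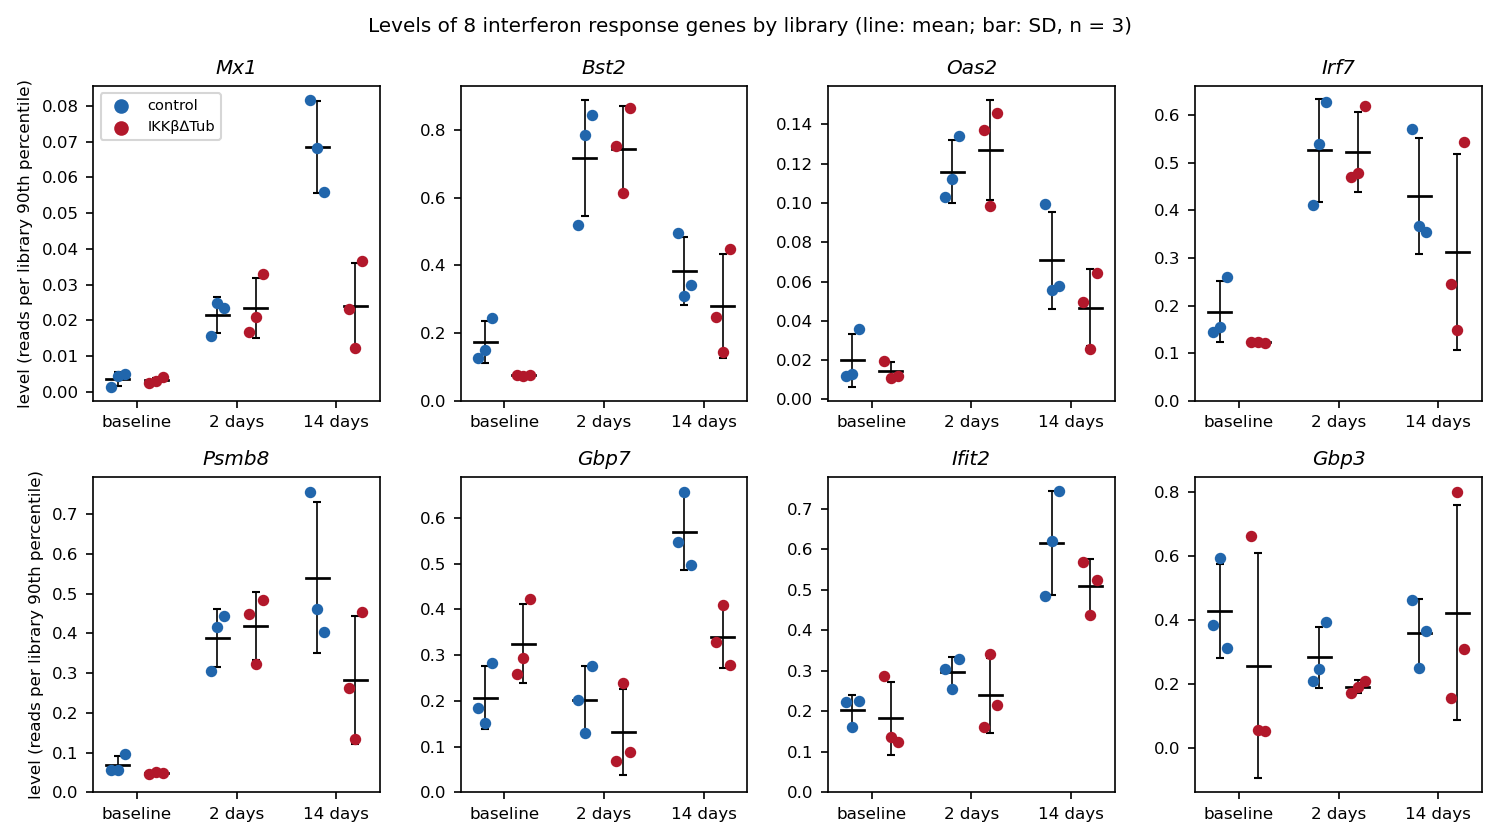
Levels of 8 genes (y axis, reads per library 90th percentile) in each of 3 libraries of control (blue) and IKKβ∆Tub (red) at baseline, 2 and 14 days, with the mean (line) and SD (bar, n = 3). Bst2 and Oas2 peak at 2 days. Ifit2 in both strains and Gbp7 in control are highest at 14 days, while Gbp7 in IKKβ∆Tub overlaps its baseline levels then. The 3 IKKβ∆Tub points of Mx1 at 14 days lie between 0.0124 and 0.0366, below the control points at 0.0559 to 0.0816.

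The comparison of strains asked whether loss of tubular IKKβ changed these genes at each time. At baseline 0 of 40 passed the test in limma and in edgeR, beside 0.049% of all genes in limma and 0.483% in edgeR. In limma 4 (10%) had an unadjusted p below 0.05, against 15.2% of all genes. DESeq2, which called 4.52% of all genes, called 1 of the 40, Bst2, whose level was 0.128, 0.149 and 0.245 in control. In IKKβ∆Tub the Bst2 level was 0.0771, 0.0749 and 0.0768, below every control library. Such a separation held for 5 of the 40 genes and for 14.9% of all genes. The fitted difference of Bst2 was -1.09 on the log2 scale (SE 0.34, adjusted p = 0.173 in limma and 0.0245 in DESeq2). The fold change was below 0 for 35 of the 40 genes, with a median of -0.31 beside -0.09 over all genes. Control replicate 3 was the highest of the 6 libraries in 30 of the 40 genes, and its Ptprc level, 0.13, was the highest of the 6 as well. Without IKKβ∆Tub replicate 1, the library without Y-linked expression, Gbp3 and Cmpk2 passed the test with log2 fold changes of -2.80 and -1.26 (limma, adjusted p = 0.00431 and 0.00475). The control libraries at baseline had no Y-linked expression either, so strain and sex cannot be told apart in that fit.

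At 2 days 0 of 40 passed the test in limma, edgeR or DESeq2, beside 0% of all genes in limma, and 0 had an unadjusted p below 0.05 in limma and 1 in each of the others. The median was 0.09, with 23 genes above 0. Without replicates 1 and 2 labelled control the median was -0.21 and 32 genes lay below 0, with 0 past the test and 1 at an unadjusted p below 0.05. That comparison has a single control library, replicate 3, which was the highest of the 6 in 17 genes, so no direction between the strains is given for this time.

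At 14 days 38 of the 40 genes were lower in IKKβ∆Tub, with a median log2 fold change of -0.52 beside -0.05 over all genes. Of these 1, Mx1, passed the test (0.416% of all genes passed as lower and 0.0673% as higher), and 11 (27.5%) had an unadjusted p below 0.05, as had 14% of all genes. Mx1 was covered by 88, 128 and 92 reads in control and 54, 17 and 55 in IKKβ∆Tub, and its log2 fold change was -1.41 (SE 0.29, adjusted p = 0.0433 in limma, 0.13 in edgeR and 0.0138 in DESeq2). Over 29 alternatives its fold change lay between -1.72 and -0.69 and the adjusted p between 0.0138 and 0.555, past the test in 8 and not in 21. For 6 genes, Mx1, Ifih1, Dhx58, Gbp7, Irgm2 and Trim30a, all 3 IKKβ∆Tub libraries lay below all 3 control libraries, as they did for 9.07% of all genes.

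The fitted difference in the other role groups at 14 days was largest for Gbp2 among the GTPases (-1.04, SE 0.33, adjusted p = 0.148), Psmb8 in class I peptide supply (-1.03, SE 0.35, adjusted p = 0.184), Dhx58 among the sensors (-0.93, SE 0.34, adjusted p = 0.206), Oasl1 in the OAS family (-0.89, SE 0.52, adjusted p = 0.494) and Irf7 in signalling (-0.63, SE 0.36, adjusted p = 0.475, all from limma). Their levels are given above by library, and all but Dhx58 overlapped between the strains. Ifi44 and Ifit3 were the 2 genes above 0, at 0.17 and 0.02.

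These differences moved with single libraries. IKKβ∆Tub replicate 2, with the low Ptprc and high Lrp2 levels, was the lowest of the 6 libraries in 34 of the 40 genes, and control replicate 1 the highest in 26. Without IKKβ∆Tub replicate 2 the median was -0.25, 37 genes were below 0, 0 passed the test in limma and 2 had an unadjusted p below 0.05, and the Mx1 fold change was -1.09 (adjusted p = 0.18 from limma). Without IKKβ∆Tub replicate 3, 5 genes passed, namely Mx1, Psmb8, Psmb9, Gbp2 and Tap1. The share of all genes that passed is not given for either fit, so these counts may not be particular to the 40 genes. With Y-linked expression as a covariate 0 passed in limma, but the Mx1 fold change was -1.42 (SE 0.34, adjusted p = 0.126), the median was -0.59 and all 40 genes were below 0. All 6 macrophage markers were lower in IKKβ∆Tub at 14 days, with a median log2 fold change of -1.44 and 0 past the test, their sum being 12.2, 11.6 and 9.25 in control against 6.71, 1.67 and 5.71 in IKKβ∆Tub. Summed over 7 T and NK cell markers the level was 0.313, 0.216 and 0.255 against 0.127, 0.0447 and 0.177. Their part in the difference of the interferon response genes was not tested.

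**Figure D4:**
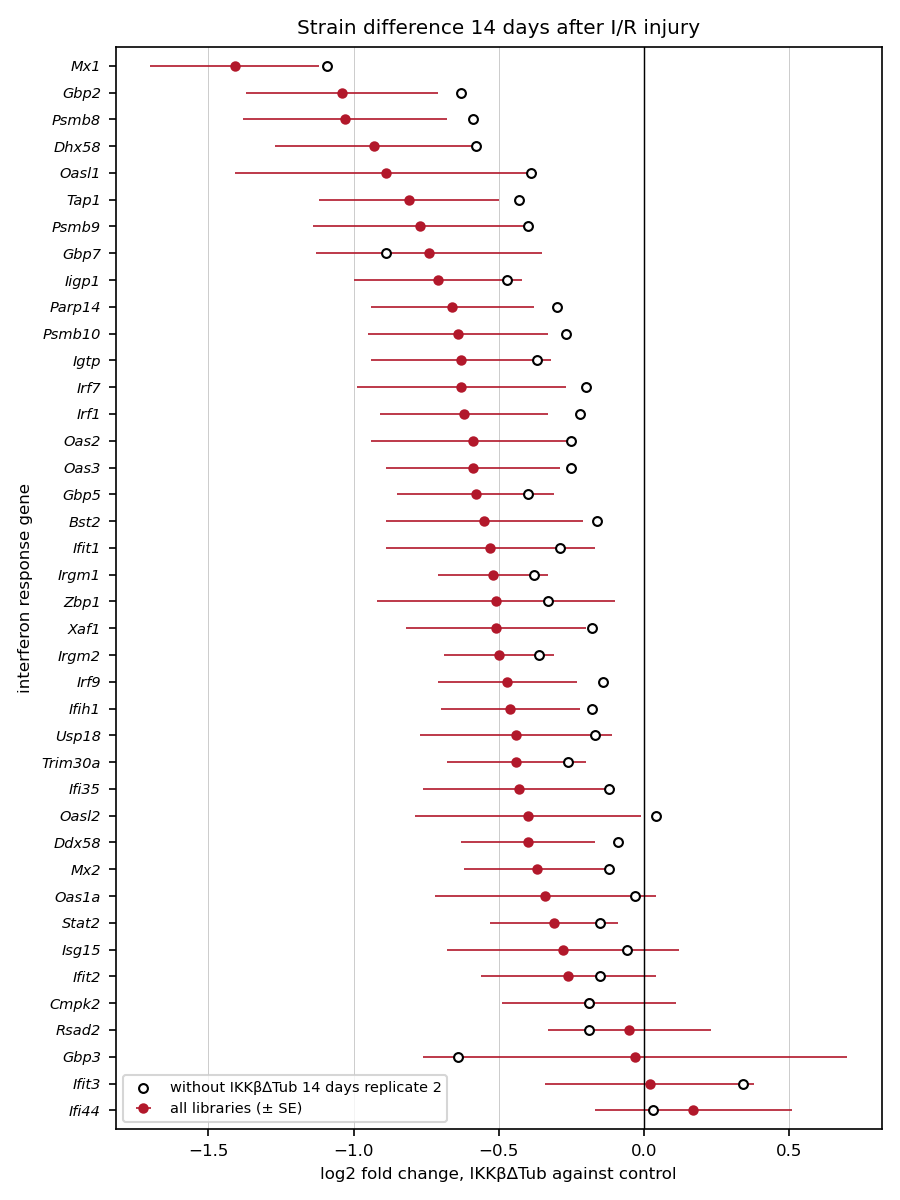
Log2 fold change of IKKβ∆Tub against control at 14 days (x axis) for the 40 genes (y axis, sorted), from all libraries (red, ± SE) and without IKKβ∆Tub replicate 2 (open circles). With all libraries 38 points lie below 0, from -1.41 for Mx1, and without that library most points move towards 0, to a median of -0.25.

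Whether the change over time differed between strains was tested by interaction terms. From baseline to 2 days 0 of 40 passed in limma, beside 0% of all genes. From baseline to 14 days 0 passed, beside 0.116%, and from 2 to 14 days 0, beside 0.0612%. With edgeR and DESeq2 0 of 40 passed for each as well. In the same order edgeR called 0.0122%, 0.239% and 0.0122% of all genes, and DESeq2 2.31%, 5.27% and 0.667%. At an unadjusted p below 0.05 in limma there were 2, 3 and 4 genes (5%, 7.5% and 10%), beside 14.4%, 17.1% and 9.84% of all genes. Mx1 had the lowest interaction estimate from 2 to 14 days, -1.50 (SE 0.41, adjusted p = 0.195 from limma). Over this interval 36 of the 40 estimates were below 0, with a median of -0.57 beside -0.05 over all genes. Without control 2-day replicates 1 and 2, which leaves 1 library in that group, the median was -0.31 and 32 were below 0. Without IKKβ∆Tub baseline replicate 1, Cmpk2 passed from baseline to 2 days (1.22) and Gbp3 (2.77) and Oasl1 (-1.94) from baseline to 14 days. The 2 IKKβ∆Tub baseline libraries then left had Y-linked expression and the control ones had none, so strain and sex cannot be told apart at baseline there. Without IKKβ∆Tub 2-day replicate 2, Gbp7 passed from baseline to 2 days (-1.92).

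The interferon transcripts that could be read were near or below detection. Ifng, the type II interferon, had 11 reads over all 18 libraries with at most 3 in one library. Ifnk had 5 reads in all, Ifnl3 had 1 and Ifnl2 had 0, where a count of 0 allows up to 3 reads (counting error only). The other type I genes were not analysed here. Of the 6 receptor chains 5 rose at 2 days and 6 at 14 days in each strain. Ifngr1, the ligand-binding chain for interferon gamma, had levels of 0.668, 0.594 and 0.49 in control at baseline, 1.64, 1.56 and 1.61 at 2 days and 2.6, 3 and 2.55 at 14 days. In IKKβ∆Tub Ifngr1 was at 0.632, 1.04 and 0.949, then 1.26, 1.36 and 1.59, then 1.89, 1.01 and 1.78. All 3 IKKβ∆Tub libraries lay below the control ones at 14 days, and Ifngr1 differed by -0.85 on the log2 scale (SE 0.23, adjusted p = 0.0988 from limma). Ifngr2, the signalling chain, had the same estimate of -0.85 (SE 0.28, adjusted p = 0.164 from limma). Of the 9 kinases and factors 5 and 8 rose in control at 2 and 14 days and 6 and 6 in IKKβ∆Tub, where Jak2 fell at 2 days. Between the strains at 14 days Irf5 and Irf8, factors of myeloid cells, had log2 fold changes of -0.88 and -0.72 (adjusted p = 0.0869 and 0.169 from limma).

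Of the 11 genes of nucleic acid sensing 6 rose at 2 days and 8 at 14 days in control, and 6 at each time in IKKβ∆Tub. Mavs, the adaptor of RIG-I and MDA5, went the other way in control, from 1.55 ± 0.0492 to 1.12 ± 0.0223 and 1.07 ± 0.114 (SD, n = 3). Tlr7, an endosomal sensor of single-stranded RNA, rose from 0.0328 ± 0.00739 to 0.411 ± 0.0431 at 14 days in control and from 0.0296 ± 0.00326 to 0.161 ± 0.0925 in IKKβ∆Tub (SD, n = 3), and the strain difference was -1.54 on the log2 scale (SE 0.43, adjusted p = 0.103 from limma). Of 5 brakes on the pathway that could be tested, 3 and 4 rose at 2 and 14 days in each strain. Among them Ptpn6 and Socs3, a phosphatase and an inhibitor of JAK kinases, had strain differences of -0.46 and -0.96 on the log2 scale at 14 days (adjusted p = 0.224 and 0.491 from limma).

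Of 10 further genes of MHC class I presentation 8 rose at each time in control and 8 and 6 in IKKβ∆Tub at 2 and 14 days. B2m, the light chain of class I, had levels of 13.3, 11.8 and 9.44 in control against 7.15, 3.88 and 9.28 in IKKβ∆Tub at 14 days, which did not overlap (log2 fold change -0.84, SE 0.24, adjusted p = 0.107 from limma). For H2-D1, a class I heavy chain, the strain difference was -0.98 on the log2 scale (SE 0.31, adjusted p = 0.138 from limma). Of 25 other interferon-induced genes 13 and 14 rose in control and 17 and 15 in IKKβ∆Tub at 2 and 14 days, and Gbp8 and Ifi47 had strain differences of -1.82 and -1.15 on the log2 scale at 14 days (adjusted p = 0.0736 and 0.127 from limma). Of the 4 chemokines 4 had risen at 14 days in control and 1, Ccl5, in IKKβ∆Tub. Ccl5, which attracts T cells and monocytes, had levels of 0.199, 0.141 and 0.139 in control against 0.0266, 0.00952 and 0.0726 in IKKβ∆Tub at 14 days, and differed by -2.30 on the log2 scale (SE 0.46, adjusted p = 0.0412 from limma). Cxcl9, which attracts T cells through CXCR3, had levels of 0.0891, 0.0128 and 0.0201 against 0.00214, 0.00366 and 0.0226, a difference of -1.54 on the log2 scale (SE 0.59, adjusted p = 0.235 from limma). Of the 5 housekeeping genes Tbp and Ppib rose and Gapdh fell at 14 days against baseline in both strains. The log2 fold changes of Tbp and Gapdh were 0.69 and -2.24 in control.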

How the data were processed

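Poly(A)-selected, stranded libraries of mouse kidney were aligned and counted by the authors, whose processing notes name STAR 2.5.2b and featureCounts 1.5.2 and whose methods name GRCm38. The authors deposited, for each gene and library, a signal, in which the reads of the gene are expressed relative to the 90th percentile over the genes of that library. All values (100%) were whole multiples of 1 read within 0.001 of a read, so read counts were recovered. The key deposited with the table divides the libraries into a newer set (baseline) and an older set (2 and 14 days).

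Levels were tested with limma 3.58.1 (R 4.3.3) on log2(level + 0.005) over 16342 genes with a level of at least 0.005 in at least 3 libraries, in one model of 6 groups over 18 libraries, with Benjamini-Hochberg adjustment and a threshold of 0.05. A fold change on this scale understates that of low genes. Reads per gene ranged from 4 to 3385 in a library for the 40 genes, and 24 had at least 100 reads in every library. Alternatives were edgeR 4.0.16 and DESeq2 1.42.0 on the recovered reads, pseudocounts of 0.001 and 0.05, no filter and a filter at 0.05, rescaling by median ratios, only the libraries compared, a replicate block, Y-linked expression as a covariate, leaving out each library, and leaving out replicates 1 and 2 of control at 2 days together. On the recovered reads, edgeR and DESeq2 called 7877 and 8260 genes in control at 14 days against baseline, and limma 8064. The scripts were tested on simulated data.

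Values by library are given for the members with the largest and smallest change at 14 days in control and the largest strain difference at 14 days in each role group, for members past a strain test, and, in each pathway list, for selected genes among the 2 with the lowest p between strains at 14 days. Bst2 at baseline, and the choice of the genes plotted by library, were settled after their values were seen. The 40 genes and all lists were chosen with earlier results of these data known. Nothing states that libraries of a group came from separate cages or litters, so p-values measure the spread between these libraries, which may be partly technical. Gene positions were looked up in GENCODE M21 by Ensembl ID, and promoter sequences are from RefSeq on GRCm38.p6. The NF-κB consensus was searched under its usual degenerate form. One gene of the pathway lists is not reported here by name.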

Additional observations from a re-analysis of the deposited data

How the results depend on the processing

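The counts of genes that passed the test between 2 and 14 days and between strains depended most on the processing. In control from 2 to 14 days 8 passed in limma, 13 with edgeR, with DESeq2 and with only the libraries compared, and 0 without control 2-day replicates 1 and 2 together, which leaves 1 library in that group with its spread taken from the others. Of all genes 34.3% passed in control over that interval in limma, 34.4% with edgeR and 37.4% with DESeq2. In IKKβ∆Tub 9 of the 40 genes passed over the same interval in limma, beside 33.1% of all genes. With only the libraries compared, and with Y-linked expression as a covariate, 5 passed. For the alternatives other than edgeR and DESeq2 the share of all genes that passed is not given here. Their counts may therefore not be particular to the 40 genes. Between strains at baseline DESeq2 gave 1 and limma 0. Between strains at 14 days limma gave 1, and 0 with a pseudocount of 0.001, without a filter, with a filter at 0.05, with edgeR, with only the libraries compared, with the Y-linked covariate and without control 2-day replicates 1 and 2 together.

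Leaving out 1 library at a time, the counts ranged from 5 to 12 in control and from 4 to 16 in IKKβ∆Tub from 2 to 14 days, from 0 to 2 between strains at baseline and from 0 to 5 at 14 days, and stayed at 0 at 2 days. The interactions ranged from 0 to 1 from baseline to 2 days and from 0 to 2 from baseline to 14 days, and stayed at 0 from 2 to 14 days. Against baseline the ranges were 22 to 30 and 29 to 36 in control and 29 to 36 and 25 to 35 in IKKβ∆Tub at 2 and 14 days. The lowest counts came without control 2-day replicate 2 or control 14-day replicate 3 (5 in control from 2 to 14 days) and without IKKβ∆Tub 2-day replicate 1 (4 in IKKβ∆Tub). The share of all genes that passed is given neither for these fits nor for the replicate block below. Changes in these counts may therefore not be particular to the interferon response genes. The other causes were not tested.

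With a replicate block 29, 36 and 9 genes passed in control and 33, 31 and 13 in IKKβ∆Tub (2 days and 14 days against baseline, and 14 against 2 days), and 1 between strains at 14 days. The numbers do not pair the libraries: of 45 pairs with the same number 9 had a correlation over 0.1, in a range from -0.352 to 0.44. A set of 150 pairs of gene and comparison was followed over the alternatives. In it 4118 values kept their direction and side of the threshold and 226 no longer passed it. A further 2 newly passed it, and 0 of those past it changed sign. The set did not hold every value named above: the new passes of Rsad2 in control at 2 days, for example, lie outside it. Depth limits the low genes: 10 of the 40 had a library with under 50 reads.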
